A study of Mus musculus with 2 samples.

Results

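The genes described here were the HCN channel genes Hcn2, Hcn3 and Hcn4 and Pex5l, the gene of their auxiliary subunit, which is also known as TRIP8b. They were chosen by name, as 4 of the 55536 annotated genes in the tables, and they had 19 of the 141767 annotated transcripts. Other members of the family were not analysed here. The data came from total RNA sequencing of the hippocampus of male B6CASTF1/J mice aged 25 days, in 2 replicates of 1 group. These mice are a first-generation cross of C57BL/6J and CAST/EiJ parents. The labels give the tissue as a layer of hippocampus, list a separate biosample for each replicate, and name the same donor record for both. Whether the replicates came from separate animals could not be told from the labels. The starting amount was 300 ng of RNA a library, to which ERCC spike-ins were added. No treatment or genotype was compared, so there is no test between groups, and the values of the 2 parental alleles were not separated.

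HCN channels open when the membrane is hyperpolarized and pass the inward current called Ih, which sets resting potential, rhythmic firing and the integration of synaptic inputs in dendrites. Each channel is a tetramer of pore-forming subunits, and the binding of cyclic AMP to the intracellular C terminus eases opening. Hcn2 and Hcn4 respond strongly to cyclic AMP and Hcn3 little. Hcn4 is best known as the pacemaker channel of the heart and is also used by thalamic neurons. The Pex5l protein binds the channels' C terminus, opposes the effect of cyclic AMP, and controls how many channels reach the surface of dendrites and axons, in ways that depend on which of its alternative N termini is made.

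The pore filter is shown first because the 3 channel genes share it and because it bears on whether reads can be told apart between them. The 3 codons of the filter, glycine, tyrosine and glycine, are in capitals, with the 8 codons before and the 8 after them, as read from the mm10 genome with GENCODE M21. They lie at chr10:79728935-79728991 on the plus strand, chr3:89150982-89151038 on the minus strand and chr9:58855567-58855623 on the plus strand, each within 1 coding exon.
Hcn2: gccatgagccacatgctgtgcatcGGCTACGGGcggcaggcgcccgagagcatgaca
Hcn3: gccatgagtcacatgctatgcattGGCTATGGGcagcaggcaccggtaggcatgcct
Hcn4: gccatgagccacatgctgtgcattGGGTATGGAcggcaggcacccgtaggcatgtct
The filter is at residues 402 to 404 of 863 in Hcn2, 312 to 314 of 779 in Hcn3, and 480 to 482 of 1201 in Hcn4. Over these 57 bases, Hcn2 and Hcn3 share 45, Hcn2 and Hcn4 share 47, and Hcn3 and Hcn4 share 50. Of the 19 residues, the same pairs share 15, 16 and 17. The proteins, translated from the annotated coding sequences, were aligned with no penalty for gaps at the ends. Identity over aligned residues alone was 68.0% of 746 for Hcn2 and Hcn3 and 75.3% of 801 for Hcn2 and Hcn4. For Hcn3 and Hcn4 it was 71.3% of 762. At the level of RNA the likeness is broken up: the longest run of bases that any pair of leading transcripts shares is 33. RSEM, the program whose columns the main tables have, gave a posterior SD of the count of 0 for all 4 genes in both libraries, so the table states no uncertainty from reads shared between these genes and others.

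Levels are given in TPM, a unit that divides reads by length and scales each library to the same sum, so that genes can be set beside each other. Pex5l had the highest level, Hcn2 came next, Hcn3 was well below it, and Hcn4 was lowest. None of these neighbours in the order came near the next: the gap was many times the spread between replicates at each step. In tissue RNA, a small number of cells with much of an RNA and many cells with little of it cannot be told apart.

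**Figure D1:**
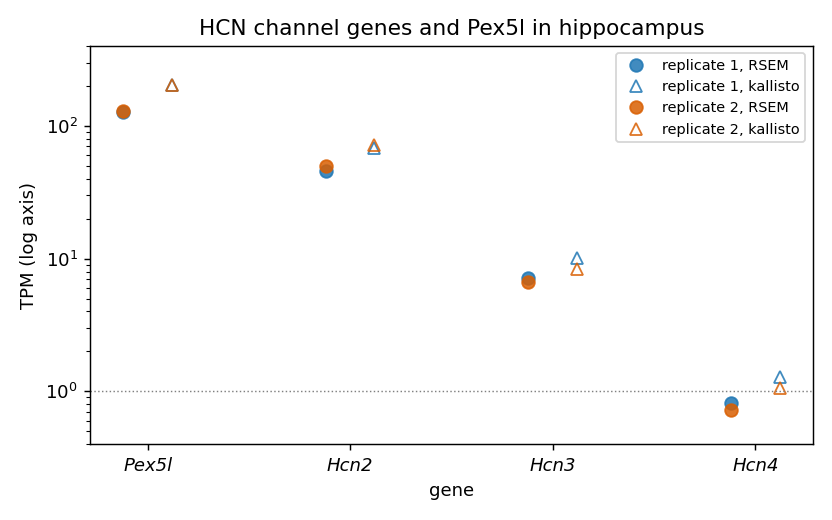
Level of each gene in each replicate, as TPM on a log axis, from the RSEM gene table (filled circles) and summed over transcripts of the kallisto table (open triangles). The dotted line is at 1 TPM. The order Pex5l, Hcn2, Hcn3, Hcn4 is the same in both replicates and both tables, and kallisto values are higher for every gene.

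Hcn2, which codes for a fast, cyclic AMP-sensitive channel subunit, lies at chr10:79716634-79736108. It was at 46.1 TPM in replicate 1 and 49.7 TPM in replicate 2, a mean of 47.9 ± 2.60 TPM (SD, n = 2), from 2970 and 3767 expected counts. It ranked 2168 among 22028 protein-coding genes, above 90.2% of them. Its share of the summed TPM of the 3 channel genes was 85.3% in replicate 1 and 87.0% in replicate 2. Both annotated transcripts encode the same 863 residues. They differ in a stretch of 106 bases after the coding sequence, spliced out in Hcn2-201 and kept in Hcn2-202. RSEM assigned 100% of Hcn2 to Hcn2-202 in both libraries, and kallisto 99.5% ± 0.718 (SD, n = 2), with 0.692 TPM of Hcn2-201 in replicate 1 and 0 in replicate 2. The transcript is rich in G and C, at 65.4%, above 99.2% of annotated protein-coding transcripts, whose median was 50.4%. Whether that base composition affected its reads was not tested.

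Hcn3 codes for a subunit with little response to cyclic AMP and lies at chr3:89146074-89160196. It was at 7.12 TPM in replicate 1 and 6.72 TPM in replicate 2, a mean of 6.92 ± 0.283 TPM (SD, n = 2), from 362 and 412 expected counts. It ranked 9349 among protein-coding genes. Hcn2 was 6.47 times as high as Hcn3 in replicate 1 and 7.40 times in replicate 2.

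RSEM did not assign all of the Hcn3 total to messenger RNA for the channel. Only 1 of its 4 annotated transcripts is coding, Hcn3-201, and it was at 4.09 TPM in replicate 1 and 4.01 TPM in replicate 2. That was 58.6% ± 1.58 (SD, n = 2) of the gene's TPM but 92.3% ± 0.822 of its expected counts. The gap comes from length, since Hcn3-201 has 4002 bases and the short models Hcn3-202 and Hcn3-204 have 533 and 627. Hcn3-202, a retained-intron model, had 16.2 and 26.7 expected counts, which became 1.79 and 2.51 TPM. Hcn3-204, a non-coding model, had 13.7 and 2.54 expected counts, which became 1.24 and 0.20 TPM. These 2 short models thus took much of the Hcn3 level from few reads, and the program that assigned them mattered. RSEM's deposited bounds were wide, at 0.402 to 2.75 and 0.642 to 3.41 TPM for Hcn3-202. For Hcn3-204 they were 0.00037 to 2.50 and 5.2e-05 to 1.35 TPM. Of the 434 windows of 100 bases in Hcn3-202, 33 were in no other Hcn3 model. The non-coding share of Hcn3 is therefore uncertain. Kallisto gave Hcn3-202 2.88 TPM in replicate 1 and 0.173 in replicate 2, and gave Hcn3-203, listed at 0 by RSEM, 0 and 2.41 TPM. Between coding transcripts alone, Hcn2 was 11.3 times as high as Hcn3 in replicate 1 and 12.4 times in replicate 2, and the kallisto table gave 11.1 and 12.6.

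Hcn4, the slow and strongly cyclic AMP-sensitive subunit, lies at chr9:58823412-58863175 and has 1 annotated transcript. It was at 0.820 TPM in replicate 1 and 0.730 TPM in replicate 2, a mean of 0.775 ± 0.0636 TPM (SD, n = 2). It had 103 and 107 expected counts, where a count of 0 would allow up to 3. It was nevertheless below the 1 TPM used here for a detected gene, and it ranked 13298 among protein-coding genes. In the kallisto table it was just above 1 TPM, at 1.28 and 1.06 TPM, on a scale that ran higher for most genes. Hcn3 was 8.68 and 9.21 times as high as Hcn4 in the 2 libraries, and Hcn2 was 56.2 and 68.1 times as high. With coding transcripts alone, Hcn3 was 4.99 and 5.49 times as high as Hcn4.

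Pex5l lies at chr3:32949408-33143247 on the minus strand and spans 194 kb. It was at 127 TPM in replicate 1 and 129.5 TPM in replicate 2, a mean of 128 ± 1.77 TPM (SD, n = 2), from 7152 and 8691 expected counts. It ranked 621 among protein-coding genes, above 97.2% of them. The auxiliary subunit was therefore 2.76 and 2.60 times as high as Hcn2, and 2.35 and 2.27 times as high as the 3 channel genes together. Between coding transcripts alone the last ratio was 1.87 in both libraries in RSEM, and 2.16 and 2.19 in kallisto. It was lower because part of the Pex5l total was in models that encode no protein. These ratios cover only the channel genes named here and compare RNA, not protein.

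Pex5l is named for its likeness to Pex5, the receptor that carries proteins with a C-terminal targeting signal into peroxisomes. The proteins of Pex5l-206 and Pex5-202 were identical at 48.7% of 507 aligned residues, and their transcripts share no run of bases longer than 20. Pex5 was at 23.6 and 26.5 TPM, so Pex5l was 5.38 times as high in replicate 1 and 4.88 times in replicate 2. All 10 genes of a list for import into peroxisomes reached 1 TPM, beside 12977 of 22028 protein-coding genes. The median of the list was 10.8 TPM. After Pex5, the highest were Pex6, part of the ATPase that recycles the receptor, at 22.9 ± 0.629 TPM (SD, n = 2), and Pex14, its docking site, at 19.6 ± 0.665 TPM. The lowest was Pex26, the membrane anchor of that ATPase, at 5.27 ± 0.269 TPM.

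The 12 annotated Pex5l transcripts begin in 3 places, and the coding ones differ in the N terminus of the protein. The pieces that tell the forms apart are shown here, on the minus strand of mm10, with each start codon in capitals. The first coding stretch of the upstream start, in Pex5l-206, has 21 bases at chr3:33142849-33142869. The middle models begin from 60.2 kb into the gene, and the first coding stretch of 6 of the 7, shown from Pex5l-205, has 93 bases at chr3:33081976-33082068, followed by a second exon of 72 bases at chr3:33080465-33080536. The optional exon of 105 bases at chr3:33024696-33024800 is in 4 of the models.
Upstream start: ATGtaccagggacacatgcag
Middle start: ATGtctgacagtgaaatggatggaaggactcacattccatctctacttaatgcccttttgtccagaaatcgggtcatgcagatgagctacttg
Second exon of the middle models: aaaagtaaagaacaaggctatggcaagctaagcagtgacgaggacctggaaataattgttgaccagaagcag
Optional exon: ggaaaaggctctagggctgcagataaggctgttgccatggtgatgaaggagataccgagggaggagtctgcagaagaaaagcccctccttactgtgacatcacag
Pex5l-204 is the exception among the middle models, with a coding sequence annotated from a later ATG, over the last 18 bases of the same stretch. It also differs at a later junction, where it keeps 3 bases that Pex5l-205 leaves out. They are in capitals below, and the reading frame is kept because 1 codon's worth of bases is added.
Pex5l-205: catccttagatttagacattcaaacacaac
Pex5l-204: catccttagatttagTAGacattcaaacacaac

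**Figure D2:**
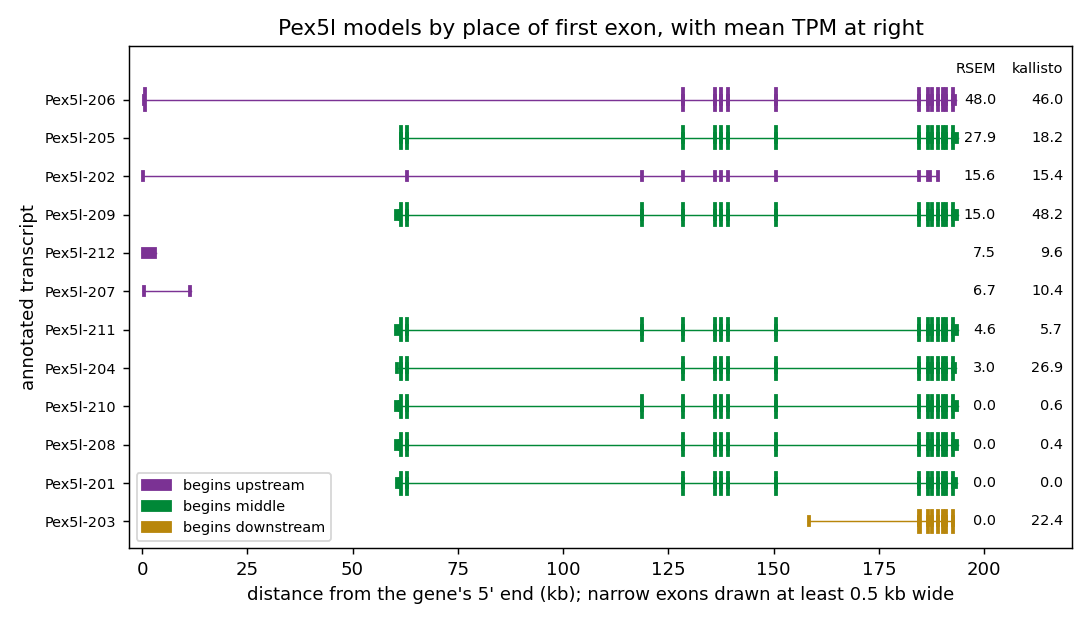
The 12 annotated Pex5l transcripts against distance from the gene's 5' end in kb, tall blocks for coding and low blocks for non-coding exon sequence, colours for the place of the first exon, and mean TPM over 2 replicates at right for both tables. Pex5l-206 is the only coding model that begins upstream, and Pex5l-203 begins far downstream and is at 0.0 in RSEM but 22.4 in kallisto.

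Pex5l-206, the only coding model with the upstream start and a protein of 567 residues, was the leading transcript in RSEM. It was at 46.6 and 49.5 TPM in the 2 libraries, 37.4% ± 1.11 of the gene (SD, n = 2). Kallisto gave 45.8 and 46.1 TPM, a share of 22.5% ± 0.198. Of the 2533 windows of 100 bases in Pex5l-206, 95 were in no other Pex5l model. Kallisto TPM were higher in general, by a median of 1.57 times over 12977 protein-coding genes at 1 TPM or more, so a like TPM is a lower relative level there.

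The 7 models with the middle start are all coding and together made 38.4% and 40.3% of Pex5l TPM in RSEM, and 47.1% and 51.1% in kallisto. Among coding transcripts, RSEM divided Pex5l almost evenly, with 48.8% and 48.7% from the upstream start and 51.2% and 51.3% from the middle start. Kallisto put 28.0% and 26.6% on the upstream start, 58.9% and 59.9% on the middle start, and 13.1% and 13.5% on the downstream model Pex5l-203. Replicates were close within a table, and the tables differed by more than the replicates did.

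The tables also differed for transcripts that overlap in most of their length. Pex5l-205 was at 27.3 and 28.5 TPM in RSEM and at 17.9 and 18.5 TPM in kallisto. Pex5l-209, which has the optional exon and encodes 650 residues, was at 12.7 and 17.3 TPM in RSEM and 44.3 and 52.1 TPM in kallisto. Neither has a single window of 100 bases that is absent from the other Pex5l models, so no fragment of that size within them can name them alone. Pex5l-204 was at 3.51 and 2.40 TPM in RSEM and 26.7 and 27.0 TPM in kallisto, and 98 of its 2622 windows were its own. Pex5l-204 and Pex5l-205 are among the 4 middle models without the optional exon. Together those 4 made 24.2% and 23.9% of Pex5l TPM in RSEM and 22.2% and 22.4% in kallisto. The tables thus differed more in the split within that group than in its total. Pex5l-203 was at 0 in both libraries in RSEM and at 21.5 and 23.3 TPM in kallisto, with 88 of 1088 windows its own. Pex5l-210 and Pex5l-208 were minor, with kallisto means of 0.642 and 0.417 TPM, and RSEM means of 0.030 and 0 TPM. The protein of Pex5l-203, with 344 residues, would lack the N-terminal part of the others. For Pex5l-205, Pex5l-209, Pex5l-204 and Pex5l-203, the values of the 2 libraries in one table did not overlap those in the other table. Those of Pex5l-206 did not overlap either. Kallisto TPM ran higher in general, and the share of all transcripts without overlap was not counted. The lack of overlap therefore marks nothing particular about these models. RSEM's deposited bounds for Pex5l-203 reached only 3.59 and 2.71 TPM, so its stated uncertainty did not cover the kallisto value.

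The optional exon showed the same split. Coding models that hold it made 18.9% and 20.9% of coding Pex5l TPM in RSEM and 31.1% and 33.6% in kallisto. The annotation has 0 models that join the upstream start to the optional exon without the second exon of the middle models, so an RNA of that make would have no model of its own in either table. The only model with the upstream start and the optional exon, the non-coding Pex5l-202, also has that second exon.

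Non-coding Pex5l models made 24.9% and 21.5% of the gene's TPM in RSEM. Pex5l-202, a retained-intron model, was at 14.3 and 16.9 TPM in RSEM and 15.4 and 15.5 TPM in kallisto. Pex5l-212 is 1 unspliced exon of 3214 bases at the start of the gene and fell almost wholly outside other models, with 2878 of 3115 windows its own. It was at 9.34 TPM in replicate 1 and 5.67 TPM in replicate 2, and its deposited bounds, 8.28 to 9.82 and 4.96 to 6.11 TPM, did not overlap. Pex5l-207, a short model of 658 bases, was at 8.04 and 5.31 TPM. Both of these upstream non-coding models were lower in replicate 2, while the coding Pex5l-206 from the same start was at 46.6 and 49.5 TPM. Pex5l-211, a coding model with a longer non-coding part, was at 5.37 and 3.86 TPM.

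Over all genes, most retained-intron models were lower in replicate 2. Among 2253 retained-intron transcripts with a mean of at least 100 expected counts, 1892 were lower in replicate 2. Their median log2 ratio of replicate 2 to replicate 1 was -0.49. Over 17436 protein-coding transcripts the median was 0.03, and 7760 were lower in replicate 2. Non-coding transcripts of the class of Pex5l-207 had a median of -0.10, with 504 of 856 lower. Pex5l-212 was at -0.71 and Pex5l-202 at 0.24 on that scale. In the introns of Pex5l on the same strand, the models Gm37443 and Gm19445, of the class still to be experimentally tested, were also lower in replicate 2, at 2.78 and 1.14 TPM and at 4.02 and 2.15 TPM. Its antisense neighbour Gm37459 had 3 expected counts in each library, and the antisense model 4930419G24Rik had 0. The part of unspliced RNA in the Pex5l total was not tested beyond these models.

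Replicates were close for all 4 genes. The log2 ratio of replicate 2 to replicate 1, on expected counts scaled by TMM factors, was 0.14 for Hcn2, -0.02 for Hcn3, -0.15 for Hcn4 and 0.07 for Pex5l. Of the 4 genes, 0 were over 2-fold apart, beside 100 of 12719 tested genes, or 0.786%, so their count was near the background and marks nothing about them. The median size of the log2 ratio was 0.11 over the 4 genes and 0.10 over all tested genes. With 1 library on each side, the direction of these ratios is a description only. Scaling to the spike-ins moved the median of all tested genes from 0.02 to -0.17, and under it Hcn2 was at -0.05 and Pex5l at -0.11. Hcn3 was on both sides of 0 among the scalings, and Hcn4 was below 0 in all 7, from -0.34 to -0.10. The interval from counting error alone was 0.07 to 0.21 for Hcn2, -0.22 to 0.18 for Hcn3, -0.54 to 0.24 for Hcn4 and 0.03 to 0.12 for Pex5l, on the TMM scale.

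The genes next to and across the channel genes were also measured, because overlap can blur counts where the use of strand is not given in the sources used here. The 3' end of Hcn3 overlaps Pklr, the pyruvate kinase of liver and red cells, over 711 bases on the opposite strand, and Pklr had 1 expected count in replicate 1 and 0 in replicate 2. Polrmt, the mitochondrial RNA polymerase, ends 14 bases from the end of Hcn2 on the opposite strand and was at 18.0 ± 1.35 TPM (SD, n = 2). No annotated gene overlapped Hcn2 or Hcn4.

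The cyclic nucleotide-gated channels are the nearest relatives of HCN channels, bind the same ligands, and are best known from photoreceptors and olfactory neurons. Of 6 such genes, 0 reached 1 TPM, beside 12977 of 22028 protein-coding genes, and the median of the 6 was 0.0975 TPM. The highest was Cngb1, at 0.470 TPM in replicate 1 and 0.320 TPM in replicate 2, from 36 and 38 expected counts. Cnga4 was at 0.305 ± 0.0354 TPM (SD, n = 2) and Cnga3 at 0.175 ± 0.00707 TPM. Cnga2 and Cngb3 had 1 or 2 expected counts a library. Cnga1 had 0 expected counts in both, which allows up to 3, although kallisto put it at 0.586 TPM. Even Hcn4, the lowest of the HCN genes here, was above the highest value of any of the 6 genes in the RSEM table.

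**Figure D3:**
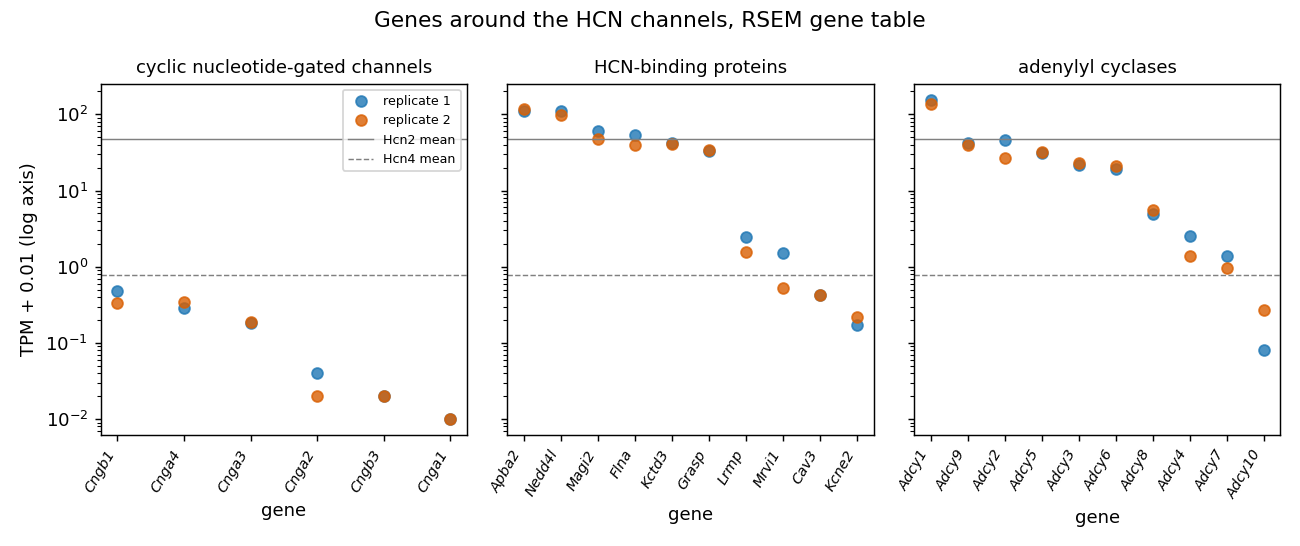
TPM + 0.01 on a log axis in each replicate for cyclic nucleotide-gated channels, genes of HCN-binding proteins and adenylyl cyclases, with lines at the mean levels of Hcn2 and Hcn4. All 6 cyclic nucleotide-gated channel genes lie below the Hcn4 line, Apba2, Nedd4l and Adcy1 lie above the Hcn2 line in both replicates, and 6 HCN-binding genes are over 10 TPM.

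Among 10 genes whose proteins are reported to bind or traffic HCN channels, 8 reached 1 TPM, beside 12977 of 22028 protein-coding genes. The median of the 10 was 37.8 TPM. Scaffold proteins were represented by 3 genes. Apba2, which codes for the adaptor Mint2, was at 112 and 117 TPM, Magi2, a synaptic scaffold, at 60.8 and 46.8 TPM, and Grasp, which codes for tamalin, at 33.2 and 34.2 TPM. Nedd4l, a ubiquitin ligase of membrane channels, was at 112 and 98.2 TPM. Flna, the actin-binding filamin A, was at 53.0 and 39.4 TPM, and Kctd3, reported as a partner of Hcn3, at 42.5 and 41.3 TPM. None of the 10 reached the level of Pex5l in the RSEM table, while in kallisto the mean of Apba2 was 205 TPM beside 204 TPM for Pex5l.

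The other 4 genes of the list were below 3 TPM in both libraries. Lrmp, an endoplasmic reticulum protein, was at 2.46 and 1.56 TPM. Mrvi1, its relative, was at 1.52 TPM in replicate 1 and 0.510 TPM in replicate 2, so its place above 1 TPM rested on replicate 1. Cav3, the caveolin of muscle, was at 0.415 ± 0.00707 TPM (SD, n = 2). Kcne2, a small subunit that also joins potassium channels, was at 0.185 ± 0.0354 TPM, from 5 and 8 expected counts.

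Most genes that make and remove the channels' ligand reached 1 TPM, as did 12977 of all 22028 protein-coding genes. Of 10 adenylyl cyclases, which make cyclic AMP, 9 reached 1 TPM, with a median of 21.1 TPM. The calcium-stimulated Adcy1 was at 156 and 136 TPM, above both Hcn2 and Pex5l. Adcy9 followed at 40.8 ± 1.65 TPM (SD, n = 2) and Adcy2 at 46.3 and 26.7 TPM. Adcy10, the soluble cyclase, was lowest, with 2 and 8 expected counts. Of 15 phosphodiesterases that break down cyclic AMP, 14 reached 1 TPM, with a median of 25.3 TPM. Pde2a, which is stimulated by cyclic GMP, was at 127 ± 0.707 TPM, Pde1a, a calmodulin-dependent form, at 63.8 ± 3.83 TPM, and Pde1b, another of that kind, at 41.4 ± 0.587 TPM. Pde4c was lowest, at 0.350 ± 0.0424 TPM.

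The labelled tissue was checked against marker genes. Their counts at 1 TPM stand beside 12977 of 22028 protein-coding genes at that level. Markers of pyramidal neurons were high, with Nrgn at 755 TPM, Slc17a7 at 664 TPM and Neurod6 at 93.3 TPM. All 7 markers of GABAergic interneurons were detected, with Sst at 199.7 TPM, Gad1 at 143 TPM and Gad2 at 40.1 TPM highest and Vip at 6.72 TPM lowest. Of the genes listed as thalamic markers, 6 of 6 reached 1 TPM. They ran from Ntng1 at 12.7, Prkcd at 12.3 and Rora at 12.1 TPM down to Lef1 at 2.09 TPM. Their summed level was 50.3 and 53.6 TPM. Whether any of that RNA came from thalamic tissue was not tested. Markers of 2 kinds of glia were high, with 5 of 5 for astrocytes (median 111 TPM) and 5 of 5 for myelinating oligodendrocytes (median 167 TPM). Those of microglia were lower, with 4 of 4 at a median of 19.1 TPM. Endothelial markers were at a median of 13.1 TPM for 3 of 3, and choroid plexus had 2 of 3, with Ttr at 54.5 TPM and Folr1 at 0.790 TPM. Which of these cells held the HCN and Pex5l RNA was not tested.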

How the data were processed

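Total RNA of 2 hippocampus samples was measured, and the 30635891 and 35713471 expected counts on genes are the depth. Per the file headers, the deposited gene table and the first transcript table have the columns of RSEM, with expected counts and TPM, and the second transcript table those of kallisto, with estimated counts and TPM. Text notes that the authors deposited beside the tables give the references as mm10 and GENCODE M21. The aligner and program versions were not given in the sources used here. TPM depends on effective length, so short models gain level relative to their reads. The deposited bounds and posterior SD were copied as they stand.

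Each level is a mean ± SD of TPM (n = 2), and with 1 group no test was made and no p-value is given. The spread is that between these samples, which may be technical. Kallisto TPM were summed per gene. For replicate ratios, expected counts were rounded, scaled by TMM in edgeR 4.0.16 with a prior count of 0.5, and called over 2-fold apart at a mean of at least 100 counts. DESeq2 1.42.0 size factors were an alternative. The ratio script was tested on simulated data. Detected means at least 1 TPM. Transcript ratios by class used log2(TPM + 0.1). Spike-ins and unnamed rows stayed out of library sizes. Alignments used Biopython 1.88. Counting intervals are at 95% and cover counting error only.

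The members and lists were chosen with earlier results of these data known. The text names all 4 members, their transcripts at 0.1 TPM or among the top 3 in either table, every cyclic nucleotide-gated channel and HCN-binding gene of the lists, and the 3 highest and the lowest gene of other lists. Neighbouring genes were named by position. Markers of glia, endothelium and choroid plexus are an exception, given mainly by their medians, and 1 marker gene is not reported here.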

Additional observations from a re-analysis of the deposited data

How the results depend on the processing

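With kallisto in place of RSEM, mean levels were 70.3 TPM for Hcn2, 9.18 for Hcn3, 1.17 for Hcn4 and 204 for Pex5l, and ranks among protein-coding genes were 2468, 9879, 13658 and 650. The order of the 4 genes was the same. With TPM rescaled to nuclear protein-coding genes, the levels were 108, 15.6, 1.75 and 289.3. Among genes at 1 TPM or more alone, Hcn4 would rank 12978, below all 12977 of them. Ratios on expected counts, which are not per length, were 8.67 for Hcn2 over Hcn3, 3.68 for Hcn3 over Hcn4, 32.0 for Hcn2 over Hcn4, 2.36 for Pex5l over Hcn2 and 2.05 for Pex5l over the 3 channel genes. In kallisto the first 2 of these were 7.74 and 7.85, and the last 2 were 2.91 and 2.53. The restriction to coding transcripts alone was a choice made after seeing the data. In RSEM it gave 11.8 for Hcn2 over Hcn3 and 5.24 for Hcn3 over Hcn4. The ratios of Pex5l were 2.06 over Hcn2 and 1.87 over the 3 genes. In kallisto, in the same order, the coding ratios were 11.8, 5.12, 2.40 and 2.18. The share of Hcn2-202 was 99.5% in kallisto, where 2 Hcn2 transcripts reached 0.1 TPM. That of Hcn3-201 was 65.2% in kallisto, 92.3% of expected counts and 100% of coding transcripts. That of Pex5l-206 was 22.5% in kallisto, 34.8% of expected counts and 48.7% of coding transcripts. The log2 ratio of the replicates was -0.053 for Hcn2 and -0.11 for Pex5l with spike-in scaling, and 0.028 for Pex5l on TPM with either pseudocount. The cause of these shifts was not tested, other than length for the ratios on counts. Leaving out 1 replicate returns the value of the other, so with 2 it says nothing about stability. Counts of detected genes in the 13 lists stayed within 1.5 times in all 65 comparisons, 5 for each list, among them 7 to 8 HCN-binding genes and 8 to 9 cyclases without 1 replicate. No paired analysis was possible because the samples form 1 group. Depth limits Hcn4, the cyclic nucleotide-gated channels and the minor Hcn3 models, each of which rests on about 100 counts or fewer.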
